A study of Homo sapiens with 10 samples.

Results

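Alternative downstream promoters are transcription starts that lie inside a gene, past the start of its canonical transcript. They were taken here from the GENCODE annotation of GRCh38: starts of transcripts of the protein_coding type on autosomes, at least 2000 bp downstream of the canonical transcription start site (TSS) of their gene and at least 1000 bp from the start of any transcript of another gene, with the most 5′ start kept per 500 bp. Of 75507 distinct starts of such transcripts on autosomes, 15559 lay at least 2000 bp downstream, 14575 of these were far enough from other genes, and 11745 in 6459 genes were kept. The data are nucleosome positions from human induced pluripotent stem cells (hiPSCs) of PB010.5, a line with a fluorescent reporter of the cell cycle inserted at EEF2, and all samples share this background, with no gene perturbed and no treatment other than digestion. Cells were digested with micrococcal nuclease (MNase), which cuts linker DNA and spares the DNA wrapped around histones. The lowest amount was 0.5 U, the highest 10 U and the others were 6, 3 and 1 U, and the 5 libraries were each sequenced in a deep run and in a run labelled low depth, which makes 10 samples with 1 replicate per concentration and read set. The authors deposited 1 pooled list of 12921589 positions, and which of the samples it holds is not stated, so no concentration can be compared with another and no replicate error exists. Each position is an interval of 140 bp with a score, the authors' own height of the signal, whose scaling is not stated and which had a median of 14.8.

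A gene with several promoters can make proteins that differ at their N terminus, or place the same protein under control of another tissue. Active promoters are known for a stretch with few nucleosomes upstream of the TSS, followed by a well placed +1 nucleosome and an array of further nucleosomes downstream. Promoters rich in CpG dinucleotides, the CpG islands, show this layout in most cell types, whereas CpG-poor promoters are mostly used in a few tissues. Whether a given start was transcribed in these cells is not measured by the list.

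The sequences before 6 starts show how the members range in base composition. They are 200 bases of the GRCh38 reference that end 1 base before the annotated start, read in the direction of transcription, and overlap no annotated exon. Capitals mark CpG dinucleotides. The first 4 come before starts with many CpGs, in genes for a presynaptic adhesion protein (NRXN3), a transcription factor of blood formation (RUNX1), a de novo DNA methyltransferase (DNMT3A) and a guanine nucleotide exchange factor of neurons (KALRN). The others come before starts with few CpGs, in genes for a homeobox factor of the early embryo and the anterior brain (OTX2) and a factor of the melanocyte lineage (MITF). The genes were chosen from those named here after their values were seen, and each is shown by its complete start with the widest interval between midpoints among those with no exon in the 200 bases.
NRXN3-215 (chr14:79279139-79279338, plus strand): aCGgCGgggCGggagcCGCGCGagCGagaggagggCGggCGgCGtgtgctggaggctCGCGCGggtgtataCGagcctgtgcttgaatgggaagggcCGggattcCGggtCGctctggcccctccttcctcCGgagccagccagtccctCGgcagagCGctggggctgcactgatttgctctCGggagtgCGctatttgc
RUNX1-204 (chr21:34889791-34889990, minus strand): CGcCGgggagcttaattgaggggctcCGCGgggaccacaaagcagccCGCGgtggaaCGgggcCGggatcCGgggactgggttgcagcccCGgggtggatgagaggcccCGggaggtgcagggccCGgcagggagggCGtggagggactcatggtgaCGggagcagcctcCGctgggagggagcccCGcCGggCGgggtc
DNMT3A-203 (chr2:25252312-25252511, minus strand): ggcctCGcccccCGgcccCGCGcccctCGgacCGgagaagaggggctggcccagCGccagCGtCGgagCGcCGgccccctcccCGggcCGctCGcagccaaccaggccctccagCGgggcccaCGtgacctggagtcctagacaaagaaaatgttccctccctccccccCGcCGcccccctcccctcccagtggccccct
KALRN-202 (chr3:124584459-124584658, plus strand): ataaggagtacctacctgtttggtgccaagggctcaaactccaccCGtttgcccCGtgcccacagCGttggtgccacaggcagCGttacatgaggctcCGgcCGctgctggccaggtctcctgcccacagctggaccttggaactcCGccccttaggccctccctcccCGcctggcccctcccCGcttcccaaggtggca
OTX2-202 (chr14:56805668-56805867, minus strand): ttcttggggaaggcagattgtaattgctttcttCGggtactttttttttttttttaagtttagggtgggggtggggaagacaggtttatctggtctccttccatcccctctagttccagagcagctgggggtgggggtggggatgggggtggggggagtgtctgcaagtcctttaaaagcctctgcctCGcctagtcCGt
MITF-202 (chr3:69866024-69866223, plus strand): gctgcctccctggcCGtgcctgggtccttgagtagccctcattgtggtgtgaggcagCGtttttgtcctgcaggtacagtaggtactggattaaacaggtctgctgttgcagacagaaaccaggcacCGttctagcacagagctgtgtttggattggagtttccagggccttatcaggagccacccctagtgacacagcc
The stretches before NRXN3-215, RUNX1-204 and DNMT3A-203 held 22, 18 and 18 CpGs, and that before KALRN-202 held 9. Those before MITF-202 and OTX2-202 held 3 CpGs each. The letters GGGCGG on either strand, the core of a GC box, occurred before the 4 CpG-dense starts and before neither of the others. CCAAT on either strand occurred before MITF-202 alone of the 6, and TATAAA between 40 and 16 bases before the start occurred in none.

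The nucleosome positions at these 6 starts also differed from start to start. At NRXN3-215, 1108966 bp downstream of the canonical TSS, the nearest midpoints lay 237 bp upstream and 133 bp downstream, with scores of 39.5 and 32.1. At DNMT3A-203 they lay 171 bp upstream and 199 bp downstream, so that no position covered the start, and the scores were 17.3 and 19.7. At RUNX1-204 they lay 262 bp upstream and 28 bp downstream, and the downstream position, with a score of 14.8, covered the start. The widest interval of each gene was what picked the start, so wide intervals here are a description. KALRN-202 had a midpoint 113 bp downstream with a score of 70.3, higher than 99.996% of the positions on autosomes, and the next midpoint upstream was 197 bp away with a score of 22.2. OTX2-202, with few CpGs, had midpoints 345 bp upstream and 125 bp downstream, a score of 49.4 downstream and 14.8 upstream. At MITF-202 the midpoints lay 72 bp upstream and 148 bp downstream with scores of 34.5 and 13.6. At this last start the midpoint upstream was thus the nearer one and had the higher score of the pair, as the map of positions at the named starts shows.

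**Figure D1:**
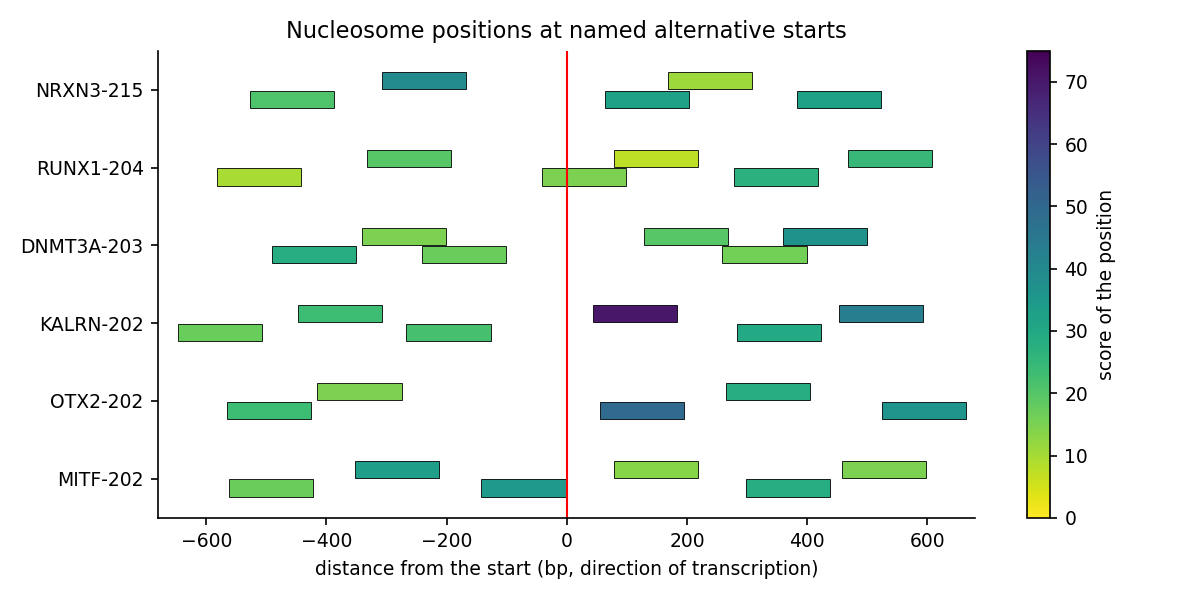
Nucleosome positions within 600 bp of 6 named alternative starts. Each bar is 1 position of 140 bp, placed by distance from the annotated start in bp and coloured by its score, and the red line is the start. Bars alternate in height only to keep neighbours apart. No bar crosses the red line at NRXN3-215, DNMT3A-203, KALRN-202, OTX2-202 or MITF-202, and a bar crosses it at RUNX1-204.

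The 11745 starts are a mixed set by annotation. The median distance from the canonical TSS was 26068 bp, with quartiles of 8607 and 75529 bp. Most genes, 3770 of 6459, had 1 such start, and TCF4, a basic helix-loop-helix factor, had the most with 16. Of the starts, 6420 (54.7%) belonged to transcripts annotated with a complete 5′ end, and 5325 (45.3%) to transcripts that the annotation tags as incomplete at the 5′ end of the mRNA or of the coding sequence. The incomplete ones lay inside an exon of another transcript of the gene in 95.3% of cases, against 25.8% of the complete ones. A CpG-rich window (observed over expected CpG of at least 0.6 and GC of at least 50% over 1000 bp) was found at 553 starts (4.71%), 429 of them complete. NRXN3-215, RUNX1-204 and KALRN-202 met this definition, and DNMT3A-203, with an observed over expected ratio of 0.596, fell just under it. By comparison, 4884 of the 6459 canonical starts of the same genes were CpG-rich. The share of CpG-rich starts among complete ones was 7.81% at 2 to 5 kb from the canonical TSS, 5.99% at 5 to 20 kb, 5.89% at 20 to 100 kb and 8.28% beyond 100 kb, with no steady trend.

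The letters around the starts separated the complete from the incomplete ones. A pyrimidine followed by a purine at the last base before the start and the start itself, the core of the initiator, was found at 42.1% of complete and 23.0% of incomplete starts. The canonical starts of the same genes had it in 79.9%, all 75507 starts in 51.1%, and the alternative starts moved 3000 bp downstream, which serve as a reference level (1348 of 11745 lay within 500 bp of an annotated start), in 21.9%. The incomplete starts thus lay near the level of moved starts. AG just before the start, the last letters of an intron, preceded 22.0% of incomplete and 10.3% of complete starts, against 99.9% of the 5′ ends of internal exons, 7.11% of moved starts and 6.39% of all starts. Of the 4989 incomplete starts inside an exon of the canonical transcript, 16.5% were at the first base of that exon. Over the 200 bases before the start, GGGCGG on either strand occurred at 11.9% of complete, 7.25% of incomplete and 59.7% of complete CpG-rich starts. The shares were 65.3% at canonical starts, 46.1% at all starts and 5.61% at moved starts. CCAAT on either strand occurred at 23.5% of the alternative starts, 28.1% of canonical, 26.4% of all and 21.7% of moved starts. TATAAA on the sense strand, 40 to 16 bases before the start, was rare everywhere, at 0.817% of alternative, 1.70% of canonical, 3.62% of CpG-poor canonical, 1.53% of all and 0.783% of moved starts.

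On average the alternative downstream starts had no stretch of low nucleosome density upstream. The density of midpoints over the 200 bp upstream, relative to that 1000 to 1500 bp away on both sides, was 0.02 on the log2 scale with an SD of 0.05 over the 22 autosomes, which stand for the spread along the genome and are not replicates. It was below 0 on 9 of 22 autosomes. The canonical starts of the same genes had -0.21 (SD 0.11). The difference, alternative minus canonical, was 0.23 (SD 0.12), and it was below 0 on 1 of 22 autosomes. Within 50 bp of the start the contrast was wider, at 0.04 (SD 0.07) for alternative and -0.49 (SD 0.14) for canonical starts, with a difference of 0.53 (SD 0.13) that was above 0 on every autosome.

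A weak +1 maximum did stand downstream of the alternative starts. The profile, smoothed over 50 bp, reached 1.15 times the flank density at 95 bp, against 1.81 times at 125 bp for canonical starts and a highest value of 1.03 for moved starts. A maximum picked from fewer midpoints is higher, and the mean of the heights over single autosomes was 1.22 (SD 0.10) where the profile of all starts gave 1.15, so the density over a fixed window is given as well. From 50 to 200 bp downstream it was 0.09 (SD 0.04) on the log2 scale for alternative starts, 0.25 (SD 0.06) for canonical and 0.00 (SD 0.04) for moved starts. The alternative starts exceeded the moved ones on 20 of 22 autosomes in this window and were lower than the canonical ones on all 22. Beyond the +1 maximum the canonical profile had maxima at 325, 515, 695 and 875 bp with heights of 1.44, 1.23, 1.12 and 1.09, while at alternative starts those at 315 and 495 bp reached 1.05 and 1.06.

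**Figure D2:**
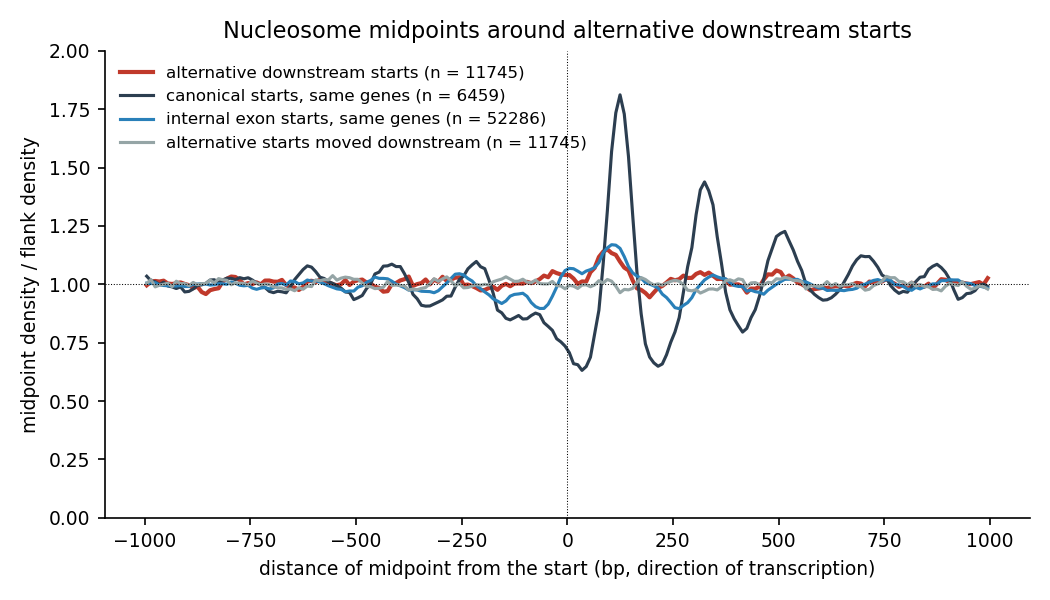
Density of nucleosome midpoints by distance from the start in bp, divided by the density 1000 to 1500 bp away, in bins of 10 bp smoothed over 5 bins. The red line (alternative downstream starts) reaches 1.15 at 95 bp, the black line (canonical starts of the same genes) 1.81 at 125 bp, the blue line (5′ ends of internal exons) 1.17 at 105 bp, and the grey line (alternative starts moved 3000 bp downstream) stays between 0.96 and 1.03 within 150 bp of its centre.

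The profile at alternative starts was closer to that of internal exons than to that of canonical promoters. The 5′ ends of 52286 internal exons of the canonical transcripts of these genes, at least 2000 bp from the canonical TSS and 1000 bp from any annotated start, had a maximum of 1.17 at 105 bp. From 50 to 200 bp downstream the density at these exon starts was 0.13 (SD 0.02). The difference, alternative minus exon starts, was -0.04 (SD 0.04) in this window and below 0 on 18 of 22 autosomes. Within 50 bp of the site the density was 0.03 (SD 0.03), and the difference from alternative starts was 0.01 (SD 0.08), below 0 on 10 of 22 autosomes. Upstream the exons had a lower density than the alternative starts, -0.08 (SD 0.06), and the difference of 0.10 (SD 0.07) was below 0 on 2 of 22 autosomes. GC content over those 200 bp was 47.0% for alternative starts, 41.7% for exon starts, 66.3% for canonical starts and 45.3% for moved starts. MNase cuts DNA rich in A and T more readily, and the part of base composition in these differences was not tested.

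The scores also set alternative starts apart from canonical ones. Positions with a midpoint 50 to 200 bp downstream had a mean score of 19.4 (SD 1.59 over autosomes) at alternative, 26.1 (SD 1.70) at canonical, 18.3 (SD 1.79) at exon and 17.8 (SD 1.50) at moved starts, where the flanks had 17.7, 17.6, 17.3 and 17.8. The difference between alternative and canonical starts, -6.68 (SD 1.28), was below 0 on all 22 autosomes. Against moved starts the difference was 1.61 (SD 0.77) and above 0 on all 22. In the 3770 genes with a single alternative start, the first midpoint downstream of it had a lower score than that of the gene's own canonical start in 2364 genes, a higher one in 1227 and an equal one in 176. The medians were 17.3 and 23.4. In the 66 of these genes where both starts were CpG-rich and complete, the score was lower in 34, higher in 27 and equal in 5, and the distance between midpoints was wider at the alternative start in 32 and narrower in 32. Over the larger sets, not paired by gene, the mean score 50 to 200 bp downstream was 22.2 (SD 3.16) at the 429 complete CpG-rich alternative starts. At the 4884 CpG-rich canonical starts it was 26.7 (SD 1.78). The difference of -4.48 (SD 2.43) was below 0 on 21 of 22 autosomes.

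The start itself was covered by no position at 3597 of 11740 alternative starts, or 30.6% (95% Wilson interval 29.8 to 31.5%, counting error only). The share over all autosomal starts of protein-coding transcripts was 42.4%, and the share at alternative starts was below it. Canonical starts of the same genes were free in 49.8% (48.6 to 51.0%), exon starts in 33.1% and moved starts in 32.8%. The midpoints on either side of an alternative start were a median of 200 bp apart, with quartiles of 150 and 260 bp. For canonical starts the median was 230 bp, with quartiles of 180 and 310 bp. A distance of at least 300 bp was found at 2220 alternative starts, 18.9% (18.2 to 19.6%), where all starts had 25.0% and moved starts 22.6% (21.8 to 23.3%). The share was thus lower at alternative starts than at the places 3000 bp downstream of them. The intervals take starts as independent, but the moved sites are the same starts shifted and some windows overlap, so they do not test this difference. GC content over 1000 bp was 47.0% at alternative and 45.3% at moved starts, and its part was not tested.

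**Figure D3:**
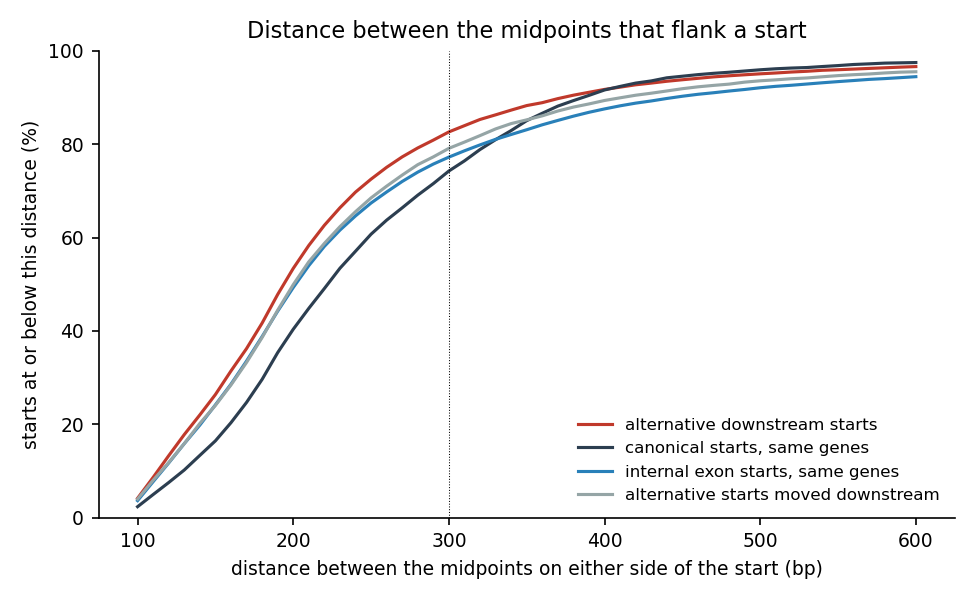
Share of starts, in percent, whose 2 flanking midpoints are no further apart than the distance on the x axis in bp, for alternative downstream starts, canonical starts of the same genes, internal exon starts and moved starts. The dotted line marks 300 bp. The red line of alternative starts reaches 53.4% at 200 bp and the black line of canonical starts 40.4%.

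Starts with complete and with incomplete 5′ ends differed upstream by less than the spread over autosomes. Complete starts had 0.03 (SD 0.06) and incomplete ones 0.01 (SD 0.07), and the difference of 0.02 (SD 0.09) was below 0 on 11 of 22 autosomes. Within 50 bp of the start the values were 0.01 (SD 0.07) and 0.07 (SD 0.10), and complete starts were lower on 17 of 22 autosomes. The +1 maximum of complete starts stood at 115 bp (SD 76 bp) with a height of 1.17. That of incomplete starts stood at 75 bp (SD 50 bp) with a height of 1.15, with a second rise to 1.09 at 35 bp upstream. The difference in location of 40 bp was smaller than its SD over autosomes, 82 bp, and was below 0 on 5 of 22. A midpoint density of 1.18 times the flanks was reached 55 bp past the centre of the exon for the 4413 incomplete starts inside internal canonical exons of up to 300 bp. For the 726 complete starts inside such exons the density reached 1.20 times the flanks, 5 bp past the centre. Among complete starts, those with the pyrimidine-purine pair had 0.05 (SD 0.09) upstream, and those without it 0.01 (SD 0.07). Starts of transcripts with the best annotation support (2146, support level 1) had 0.01 (SD 0.14) upstream and a +1 maximum of 1.15 at 95 bp, the same location and height as those of the other 9599.

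CpG-rich alternative starts had a lower midpoint density around the start, less so than canonical starts. The density was as low at CpG-rich moved starts, of which 71 of 159 lay within 500 bp of an annotated start. At CpG-rich internal exon starts it was near that of the flanks. The 429 complete ones had an upstream density of -0.13 (SD 0.29) and a density within 50 bp of -0.20 (SD 0.39), the latter below 0 on 16 of 22 autosomes. Their profile had a -1 maximum of 1.14 at 215 bp upstream, a minimum of 0.76 at 145 bp upstream and a +1 maximum of 1.34 at 135 bp. The 429 starts lie in 360 genes, while the CpG-rich canonical starts come from 4884 of the 6459 genes, so the sets are not paired by gene. For these canonical starts the upstream density was -0.28 (SD 0.13), the density within 50 bp -0.66 (SD 0.19), and the +1 maximum 1.96 at 125 bp. The difference within 50 bp was 0.46 (SD 0.38), with the alternative starts lower on 2 of 22 autosomes. The difference upstream was 0.16 (SD 0.29), with the alternative starts lower on 5. From 50 to 200 bp downstream the density was 0.11 (SD 0.17) at the complete CpG-rich alternative starts and 0.28 (SD 0.06) at the canonical ones, with a difference of -0.17 (SD 0.15). An autosome held as few as 4 complete CpG-rich alternative starts, and their SDs were wide.

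The 5991 complete CpG-poor starts had 0.04 (SD 0.06) upstream, 0.02 (SD 0.08) within 50 bp and a +1 maximum of 1.16 at 95 bp. In the fixed window from 50 to 200 bp their density was 0.10 (SD 0.07), close to the 0.11 (SD 0.17) of the complete CpG-rich ones, so the heights of 1.34 and 1.16, which rest on unequal numbers of midpoints, do not rank the classes. Over all members of each CpG class, complete or not, the CpG-rich starts had a lower density within 50 bp on 18 of 22 autosomes, by -0.24 (SD 0.37), and a lower upstream density on 14, by -0.10 (SD 0.23). Both differences were smaller than their spread over autosomes. Internal exon starts in CpG-rich windows (330 sites) had 0.01 (SD 0.30) upstream and 0.06 (SD 0.37) at the site. The difference, all CpG-rich alternative minus these exon starts, was -0.08 (SD 0.39) upstream and -0.26 (SD 0.62) within 50 bp. It was below 0 on 13 and 15 of 22 autosomes, and smaller than its spread. Moved starts in CpG-rich windows (159 sites) had -0.06 (SD 0.38) upstream and -0.19 (SD 0.70) at the site, with a minimum of 0.60. The difference between all CpG-rich alternative starts and these was -0.02 (SD 0.34) upstream and -0.005 (SD 0.88) within 50 bp, over the 13 autosomes that gave a value. Of the 159 sites, 71 lay within 500 bp of an annotated start of some transcript, so they are no level free of promoters. The values upstream and within 50 bp do not set the CpG-rich alternative starts apart from them. From 50 to 200 bp downstream the densities were 0.13 (SD 0.16) at all CpG-rich alternative and -0.11 (SD 0.63) at CpG-rich moved starts. The difference of 0.24 (SD 0.62) was below 0 on 2 of the 12 autosomes that gave a value, and was smaller than its spread. A stricter definition (observed over expected of at least 0.75 and GC of at least 55%) left 220 alternative starts, with -0.11 (SD 0.54) upstream and -0.36 (SD 0.81) within 50 bp. CpG-rich complete starts under 20 kb from the canonical TSS (211) and at 20 kb or more (218) had -0.12 (SD 0.26) and -0.13 (SD 0.47) upstream. Complete CpG-rich starts were covered by no position in 40.3% (35.8 to 45.0%) and complete CpG-poor ones in 31.3% (30.2 to 32.5%), where all autosomal starts had 42.4% and CpG-rich moved starts 33.3% (26.5 to 41.0%). The interval of the complete CpG-rich starts held the share of all starts and overlapped that of the moved ones. CpG-rich internal exon starts were free in 27.9% (23.3 to 33.0%), an interval below that of the complete CpG-rich starts.

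CpG-poor canonical starts of the same genes also lacked a depleted stretch upstream. The upstream density was 0.02 (SD 0.05) at all CpG-poor alternative starts and 0.01 (SD 0.12) at the 1575 CpG-poor canonical starts, and the difference of 0.01 (SD 0.14) was below 0 on 11 of 22 autosomes. Within 50 bp of the start the densities were 0.05 (SD 0.07) and -0.06 (SD 0.23), and the difference of 0.11 (SD 0.23) was below 0 on 8 of 22. No position covered the start at 30.3% (29.4 to 31.1%) and 36.0% (33.6 to 38.4%). The downstream scores were 19.3 and 24.0, and the difference of -4.73 (SD 2.84) was below 0 on 20 of 22. The density 50 to 200 bp downstream was 0.09 (SD 0.05) and 0.18 (SD 0.14), lower at alternative starts on 17 of 22.

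**Figure D4:**
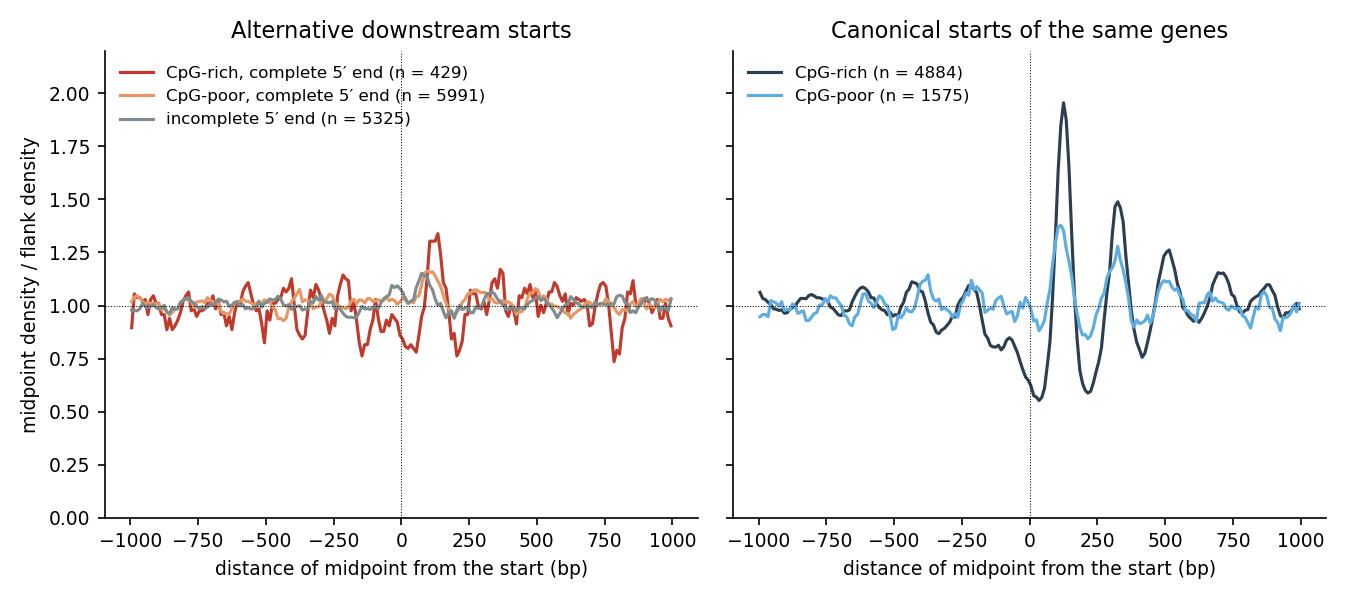
Midpoint density relative to the flanks by distance from the start in bp, for alternative downstream starts by CpG class and completeness of the 5′ end (left) and canonical starts of the same genes by CpG class (right), on 1 scale. The CpG-rich alternative starts reach 1.34 at 135 bp and the CpG-rich canonical starts 1.96 at 125 bp. The red line rests on 429 starts and is the least smooth.

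**Figure D5:**
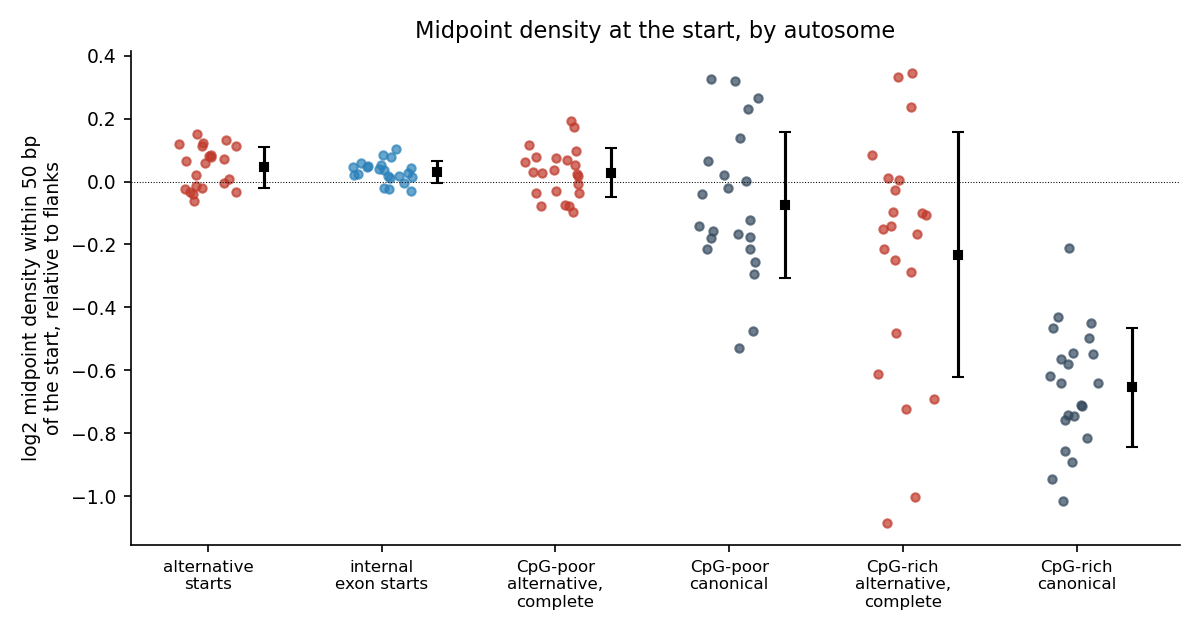
Midpoint density within 50 bp of the start, on a log2 scale relative to the flanks. Each point is 1 of 22 autosomes, and squares with bars are the mean and SD over autosomes. All 22 points of CpG-rich canonical starts lie below 0, and 16 of 22 points of complete CpG-rich alternative starts do.

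Base composition of the window moved with the distances between midpoints. In the lowest of 4 equal classes by GC content, 34.1% (32.4 to 35.8%) had flanking midpoints at least 300 bp apart and the mean score downstream was 14.2. In the highest class the values were 11.5% (10.4 to 12.7%) and 23.9. Mean scores of the flanks were 14.6 in the lowest and 21.0 in the highest class. Upstream density was -0.08 (SD 0.15) in the lowest class and 0.09 (SD 0.09), 0.04 (SD 0.09) and 0.01 (SD 0.07) in the next 3. The canonical starts, at 28.3% with a GC content of 62.7% in their windows, did not follow this order. Starts were also classed by distance from the canonical TSS (2 to 5, 5 to 20, 20 to 100 and over 100 kb). The share with midpoints at least 300 bp apart lay between 17.6 (16.3 to 18.9) and 20.2% (19.0 to 21.4). The mean score downstream was 20.4, 20.1, 19.1 and 18.2 from the nearest class to the farthest. Scores of the flanks fell alike, at 18.5, 18.4, 17.6 and 16.4. The score downstream divided by that of the flanks was 1.10, 1.09, 1.09 and 1.11. The upstream density was between 0.01 and 0.04 and the share of starts covered by no position between 30.2 and 31.6% in these classes. Starts upstream and downstream of the canonical start codon (2565 and 9179) had 0.03 (SD 0.10) and 0.02 (SD 0.04).

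Of the genes known for an internal promoter, 31 of 32 had an alternative start by this definition, where 6459 of 18773 protein-coding genes on autosomes had one, and there were 134 in all, of which 94 were complete. The distance between flanking midpoints ran from 100 to 880 bp with a median of 210 bp, where all alternative starts had 200 bp. It was at least 300 bp at 21 of them (15.7%, against the 18.9% of all), and 36 (26.9%) were covered by no position, against 30.6% of all alternative starts and 42.4% of all starts. The 15 complete CpG-rich starts of the list, in 9 genes, had a median of 230 bp. Upstream density was -0.15 at the 134 starts of the list, -0.17 at the 94 complete ones and -0.85 at these 15. All alternative starts had 0.02, all complete ones 0.03 and all complete CpG-rich ones -0.13. The values of the list come without a spread over autosomes, and the difference was not tested. Widest in the list was PPARG-231, a start in the gene of the fat cell receptor PPARγ, in a window of 31.5% GC. Its midpoints lay 2 bp upstream and 878 bp downstream, so the upstream position covered the start. Among the CpG-rich ones NRXN3-215 was widest, and the 3 starts of RUNX1 had 290, 260 and 200 bp. Among complete starts of the list the highest score downstream was 44.4 at LAMA3-201, in a laminin gene with a short epidermal form. In PAX6, the eye and brain factor, all 7 starts were complete, with distances of 100 to 220 bp and scores of 12.3 to 23.4. In MITF the 5 starts had 160 to 220 bp, and in PDE4D, a cyclic AMP phosphodiesterase with many N-terminal forms, the 6 starts had 110 to 290 bp. The 16 starts of TCF4 ran from 130 to 480 bp and 5 of them reached 300 bp, of which none was CpG-rich.

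Of the pluripotency genes 7 of 26 had alternative starts, where 6459 of 18773 protein-coding genes on autosomes had one. There were 10 in all, 5 of them complete, where 54.7% of all alternative starts were. None was CpG-rich, where 4.71% of all alternative starts were. Their distances ran from 110 to 470 bp with a median of 190 bp, and OTX2-202 was both the widest and the one with the highest downstream score. No position covered 4 of the 10 (40.0%), against 30.6% of all alternative starts and 42.4% of all starts. The distance was at least 300 bp at 3 (30.0%), against 18.9% and 25.0%. ZFP42-203, in a zinc finger gene that marks undifferentiated cells, had 300 bp with scores of 17.3 on both sides. All 15 genes of the cardiac list, which encode sarcomere proteins, ion channels and heart transcription factors, had alternative starts, 42 in all. Of these 18 were complete and 2 CpG-rich, where 54.7% and 4.71% of all alternative starts were. The median distance of the 42 was 180 bp, with a range of 100 to 680 bp. No position covered 17 of them (40.5%), against 30.6% of all alternative starts and 42.4% of all starts. The distance was at least 300 bp at 10 (23.8%), against 18.9% and 25.0%. Among the 18 complete ones, 7 (38.9%) were covered by no position and 3 (16.7%) reached 300 bp. All complete alternative starts had 31.9% and 18.4%. TTN-201, in the gene of the giant sarcomere protein titin, had 210 bp and the highest downstream score of the list, 41.9, with only 9 midpoints in its window. The 2 CpG-rich ones were TPM1-238, in a tropomyosin gene, with 310 bp and TBX5-204, in a T-box factor gene, with 150 bp. Cells here were not cardiomyocytes, and no position list from cardiomyocytes was analysed here.

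The extremes were of different kinds. No midpoint lay within 1500 bp of 110 alternative starts in 77 genes, and all 10 of the widest complete ones were among them, in stretches of 217320 to 1828160 bp that hold no position at all. They include starts in NAIP, GTF2H2C, HIC2 and RASA4, and distances there measure where the list has no positions. The median start had 16 midpoints within 1500 bp. The narrowest distance, 100 bp, was shared by 492 alternative starts, 254 of them complete, and is also the smallest distance between neighbouring midpoints anywhere on the autosomes, so intervals of 140 bp overlap there. The 10 complete starts with the highest score at the nearest downstream midpoint had scores of 60.5 to 71.6. At 8 of these 10 the flanking midpoints were at least 300 bp apart, 7 were covered by no position, 6 had no midpoint in the 200 bp upstream and 5 were CpG-rich. Among all 6420 complete starts the shares were 18.4%, 31.9%, 15.9% and 6.68% in the same order. The 10 include MYO15A-207, with midpoints 246 bp upstream and 94 bp downstream, in a gene for an unconventional myosin of the inner ear. TTC39A-214, KALRN-202, SLC27A5-204, FSTL3-206 and TFAP4-202 followed, with distances of 340, 310, 340, 310 and 330 bp. These were chosen by their downstream score, and the wide interval at most of them is a description of the 10.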

How the data were processed

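Per the paper's methods, deep-run reads were trimmed with Trimmomatic 0.40, and the authors ran the nucMACC workflow with GRCh38 and a list of blacklisted regions. The low-depth runs went no further than quality control. Deposited scores are a signal per position and never negative. The program that called the positions, the runs pooled and the scaling of the score are not given in the sources used here, and the reads behind a score are unknown. The list was used without a filter. Scores came in steps of 1.23, and 89.4% of distances between neighbouring midpoints were multiples of 10 bp.

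Starts came from GENCODE release 44 (the paper's methods name release 48) and sequences from the hg38 reference, where no position ran past a chromosome end. Midpoints within 1500 bp were counted per start. The windows of 2433 alternative starts share bases with another. The named genes were 3 lists (genes known for an internal promoter, pluripotency genes, cardiac genes) and the 10 complete starts with the widest distance, the narrowest distance and the highest downstream score. The members, lists and comparisons were chosen with earlier results of these data known. Items withheld for evaluation are not reported here. With 1 pooled list there are no replicates, and no test was run. Alternatives were higher scores, complete or isolated starts, weights by score, other bins, other CpG cut-offs and other reference starts. Calculations, first tested on simulated positions, used pysam 0.24.0, pandas 2.3.3, NumPy 2.4.6, SciPy 1.17.1 and matplotlib 3.10.9 under Python 3.11.15.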

Additional observations from a re-analysis of the deposited data

How the results depend on the processing

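No paired analysis was possible because values per sample are not held in the pooled positions. Of 43 alternative values for 9 results, 35 moved by less than 1 SD over autosomes, 8 moved by more and none changed sign. When only positions that reached the median score were kept, the upstream density of alternative starts was 0.082, the +1 height 1.32, the median distance between midpoints 330 bp, the difference from canonical starts 0.38 and that from exon starts 0.21. Weighted by score, the upstream density was 0.074 and the +1 height 1.27. Among CpG-poor starts alone, an alternative chosen after the data were seen, the difference from canonical starts was 0.010, and the cause was not tested. Canonical starts at least 1000 bp from other genes (4245 starts) gave 0.18. The scores carry no read totals, so a position that is missing from the list cannot be told apart from a nucleosome with too few reads.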
